A study of Mus musculus with 8 samples.

Results

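The genes described here are 8 transcription factor genes of the myeloid lineage, Spi1, Gfi1, Irf8, Irf5, Myb, Runx1, Fli1 and Zeb2, out of 32285 genes in the deposited single-cell table. They were chosen for known roles in granulocyte or monocyte fate, with earlier results of these data known. Of the 8 genes, 6 had at least 20 CPM (the gene's UMIs relative to all UMIs of the same cells) and 50 UMIs in the higher of the libraries compared, while Irf8 and Irf5 stayed below that level.

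A myeloid progenitor becomes a neutrophil or a monocyte under a small set of DNA-binding proteins that promote one fate and repress the other. PU.1, the ETS factor encoded by Spi1, acts in both fates; the zinc finger repressor encoded by Gfi1 is needed for neutrophils in mice; Irf8 directs cells to monocytes and dendritic cells. Neutrophil maturation can be followed by granule genes: Elane encodes the elastase of primary granules, Ngp a protein of secondary granules, and Retnlg marks late neutrophils.

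The deoxycholic acid group came from whole mouse bone marrow cultured over 1 week with deoxycholic acid, a secondary bile acid, at 35 µM. The media control group was kept for the same time without it. Both groups grew on irradiated AFT024 cells, a fibroblast line from embryonic mouse liver, in medium with hydrocortisone at 1 µM, and lineage-negative cells were sorted before capture. Feeder cells could thus be carried over, and strain, age and sex of the mice are not stated in what was used here. The labels list 4 samples per group and the design names 2 experimental replicates, but each cell name carries only its group. The samples could not be told apart, so each group was taken as 1 library. No difference below has a replicate check or a test. The question the design poses is what the bile acid changed in myeloid cells; lithocholic acid, also named in the design, was not analysed here.

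The deoxycholic acid library held 8520 barcodes and 131341422 UMIs, and the media control library 9346 barcodes and 183462851 UMIs, beside 8000 cells targeted per sample. After filtering, 7755 deoxycholic acid cells with a median of 14424 UMIs and 8495 media control cells with a median of 18831 UMIs were kept, and 25 barcodes occurred in both libraries. The sort aimed at progenitors, and 6 immature neutrophil markers summed to 35829 CPM in deoxycholic acid cells and 34422 CPM in media control cells. For 6 granulocyte-monocyte progenitor markers the sums were 8591 and 10459 CPM, and for 5 stem cell markers 34.2 and 34.0 CPM. Such sums depend on how abundant each marker is and do not give shares of cells. All intervals below are exact 95% intervals for counting error only, since UMIs of 1 cell are not independent.

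Stages were set by Elane, Ngp and Retnlg at a cut of 20 UMIs per 10000 in each cell. The Ngp only stage was the largest, with 4053 deoxycholic acid cells (52.3%) and 4019 media control cells (47.3%). Before it came the Elane only stage, with 1053 cells (13.6%) and 1151 cells (13.5%), and the Elane and Ngp stage, with 1656 cells (21.4%) and 2097 cells (24.7%). After it came the Ngp and Retnlg stage, with 203 cells (2.62%) and 282 cells (3.32%), and the Retnlg only stage, with 40 and 55 cells. The 749 deoxycholic acid cells (9.66%) and 890 media control cells (10.5%) under all of these cuts held several kinds of cell and are called the stage with no marker. Depth differed along this order: the median was 18230 UMIs in deoxycholic acid cells and 25274 UMIs in media control cells of the Elane only stage, against 5351 and 6044 UMIs in the Ngp and Retnlg stage.

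**Figure D1:**
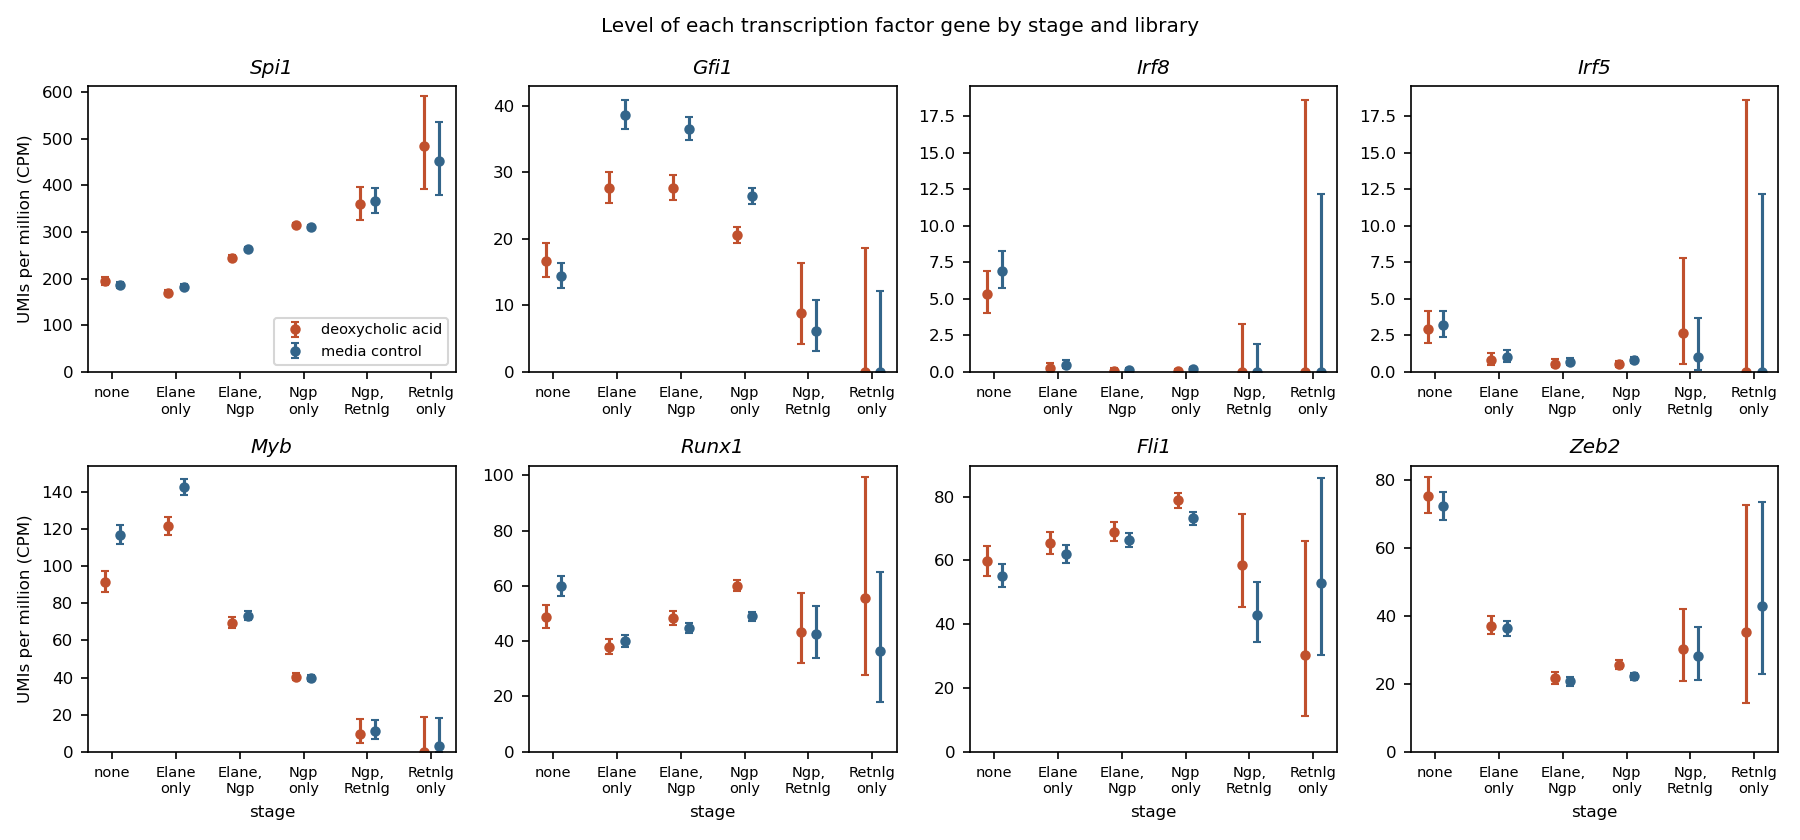
Level of each gene (CPM) by stage, with deoxycholic acid in orange and media control in blue; bars are exact 95% Poisson intervals and each panel has its own axis from 0. Spi1 climbs to 485 and 453 CPM in the Retnlg only stage, Myb and Gfi1 have at most 1 UMI per library there with intervals up to 18.6 CPM, and Irf8 stands above 1 CPM only where no marker passed its cut.

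The ETS genes differed along the stages, with Spi1 increasing from the Elane only stage on and Fli1 highest in the Ngp only stage. Spi1 was at 195 CPM in deoxycholic acid cells with no marker, and then at 170, 245, 316, 360 and 485 CPM from the Elane only to the Retnlg only stage. In media control cells it was at 186 CPM with no marker, and then at 183, 263, 311, 367 and 453 CPM. Each step from Elane only to the Ngp and Retnlg stage exceeded the counting intervals in both libraries, while the last step did not (326 to 397 against 393 to 592 CPM with deoxycholic acid, and 341 to 395 against 380 to 536 CPM in the media control). Between the Elane only and the Ngp and Retnlg stages the fold was 2.12 (1.90 to 2.35) with deoxycholic acid and 2.01 (1.86 to 2.18) in the media control. These levels are relative to all UMIs of a stage: per cell, the Ngp and Retnlg stage had 2.00 Spi1 UMIs with deoxycholic acid and 2.55 in the media control, below the 3.31 and 4.77 UMIs of the deeper Elane only cells.

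With cells thinned to 5000 UMIs, the share of cells with a Spi1 UMI also increased. It was 56.8% of deoxycholic acid cells and 61.1% of media control cells in the Elane only stage (90.9% and 95.7% unthinned), and 82.1% and 84.3% in the Ngp and Retnlg stage (79.8% and 85.1% unthinned). Thinning left out 10 and 21 cells of the Elane only stage and 91 and 97 cells of the Ngp and Retnlg stage as too shallow. A cluster with raised fibroblast markers, which should lack this blood cell gene, had a Spi1 UMI in 6.25% of 64 deoxycholic acid cells and 5.81% of 86 media control cells (unthinned, median 2877 and 4021.5 UMIs).

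Fli1, whose product is an ETS factor also known from megakaryocytes, was highest in the Ngp only stage in both libraries. It was at 59.7 CPM in deoxycholic acid cells with no marker and at 65.4, 69.0, 78.9, 58.5 and 30.3 CPM along the other stages. The media control had 55.1 CPM with no marker and 62.0, 66.4, 73.2, 43.0 and 52.9 CPM. The Ngp only level lay above that of the Elane only stage by 1.20-fold with deoxycholic acid and 1.18-fold in the media control, each with its interval above 1. The Ngp and Retnlg stage over the Elane only stage was at 0.894 (0.687 to 1.14) with deoxycholic acid and 0.694 (0.551 to 0.863) in the media control, and the 6 and 16 UMIs of the Retnlg only stage set no order.

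Gfi1 had its highest levels in the stages with Elane and the lowest in those with Retnlg. It was at 16.7 CPM in deoxycholic acid cells with no marker, at 27.7 CPM in both the Elane only and the Elane and Ngp stage, and at 20.6 CPM in the Ngp only stage. The media control had 14.4, 38.6, 36.6 and 26.4 CPM in the same stages. The intervals of the Elane only and the Elane and Ngp stages overlapped in both libraries. In the Ngp and Retnlg stage 10 UMIs in deoxycholic acid cells and 12 UMIs in media control cells gave 8.86 CPM (4.25 to 16.3) and 6.14 CPM (3.17 to 10.7). No Gfi1 UMI was seen in the Retnlg only cells, where 3 counts would be 15.1 CPM with deoxycholic acid and 9.92 CPM in the media control, so absence was not detectable at this depth.

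Myb, which keeps progenitors dividing, had the steepest decline along the stages. In deoxycholic acid cells it was at 91.8 CPM with no marker and then at 122, 69.4, 40.5, 9.75 and 0 CPM. In media control cells it was at 117 CPM with no marker and then at 143, 73.2, 39.9, 11.3 and 3.31 CPM. The Elane only stage was highest in each library, and each step down to the Ngp and Retnlg stage exceeded the counting intervals. The Ngp and Retnlg level was 0.080 of that in the Elane only stage with deoxycholic acid (0.040 to 0.143) and 0.079 in the media control (0.050 to 0.120).

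Of the 6 genes above the minimum, 1 was at least 2-fold higher (Spi1) and 2 were at least 2-fold lower (Gfi1 and Myb) in the Ngp and Retnlg stage than in the Elane only stage, in each library. At a cut of 50, Gfi1 was no longer 2-fold lower with deoxycholic acid (log2 fold -0.40) and Spi1 no longer 2-fold higher in the media control (0.87), and per cell Spi1 turned to -0.73 and -0.91. The background is large in this contrast. Of all measured genes, 21.0% were at least 2-fold higher and 44.6% at least 2-fold lower with deoxycholic acid, and 24.1% and 40.7% in the media control. The fold of Gfi1 was 0.320 (0.153 to 0.594) with deoxycholic acid and 0.159 (0.082 to 0.279) in the media control. Already in the Ngp only stage Myb was 0.333 of its Elane only level with deoxycholic acid and 0.280 in the media control. It was the only one of the 6 genes at least 2-fold lower there, against 21.0% and 23.0% of measured genes. Irf8, below the minimum, was at 0.250 (0.052 to 1.05) and 0.414 (0.179 to 0.949) of its Elane only level. No member was at least 2-fold higher there, against 16.6% and 14.6% of genes.

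**Figure D2:**
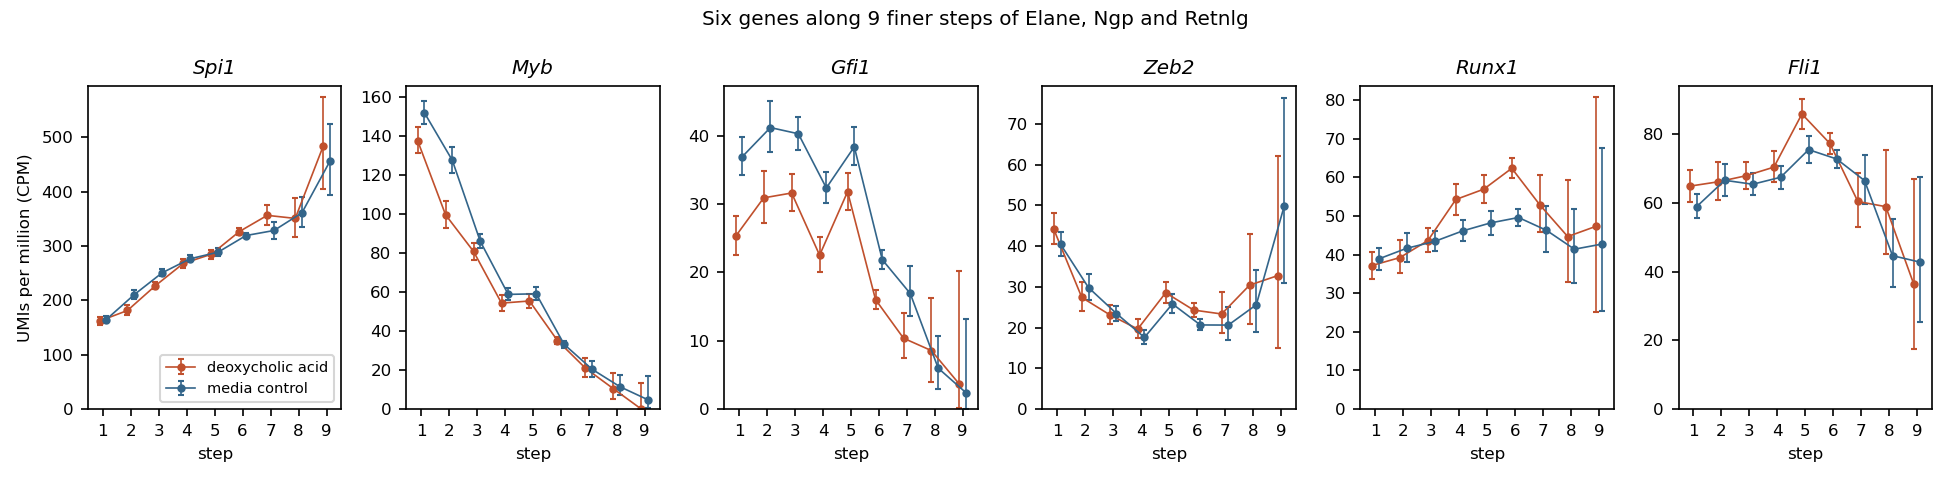
Level (CPM) of the 6 more abundant genes along 9 finer steps, from Elane without Ngp (step 1) to Retnlg without Ngp or at 100 or more per 10000 (step 9); deoxycholic acid orange, media control blue, bars exact 95% Poisson intervals. Myb starts at 138 and 152 CPM and ends at 0 and 4.75 CPM, and Spi1 starts at 162 and 165 CPM and ends at 484 and 456 CPM.

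The finer steps resolved the order within the large stages. Myb was at 138, 99.7, 80.9 and 54.4 CPM with deoxycholic acid over the first 4 steps, in which Elane stayed above its cut and Ngp increased, and at 152, 128, 86.1 and 58.8 CPM in the media control. Gfi1 did not follow it: it was at 25.3, 30.9, 31.6 and 22.5 CPM with deoxycholic acid over these steps and at 37.0, 41.2, 40.3 and 32.4 CPM in the media control. At step 5, where Elane was between 5 and 20 per 10000, Gfi1 was at 31.8 CPM with deoxycholic acid and 38.4 CPM in the media control, and at step 6, below 5, at 16.0 and 21.9 CPM. Gfi1 thus had its lower values at step 4, where Ngp was at least 100 per 10000, and from step 6 on, with step 5 above both in each library.

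Zeb2, a zinc finger and homeodomain repressor of the ZEB family, was highest outside the neutrophil stages. It was at 75.5 CPM in deoxycholic acid cells with no marker and at 37.2, 21.6, 25.6, 30.1 and 35.3 CPM along the stages. The media control had 72.4 CPM with no marker and 36.3, 20.7, 22.2, 28.1 and 43.0 CPM. The stage with no marker was 2.03-fold (1.84 to 2.25) above the Elane only stage with deoxycholic acid, where 5.55% of genes were at least 2-fold higher. The fold was 1.99 (1.84 to 2.17) in the media control, just under 2-fold, where 4.68% of genes were at least 2-fold higher. In the same contrast Gfi1 was at least 2-fold lower in the media control, at 0.372, like 0.767% of genes, but not with deoxycholic acid, at 0.603, where 0.51% of genes were; the difference between the libraries was not tested.

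Runx1, the DNA-binding subunit of core binding factor, increased from the Elane only to the Ngp only stage in each library. No Runx1 difference between the libraries was called in all kept cells or within a stage at the cuts used here. With deoxycholic acid it was at 48.8 CPM with no marker and at 38.0, 48.2, 60.0, 43.4 and 55.5 CPM along the stages. In the media control it was at 59.8 CPM with no marker and at 40.0, 44.7, 49.0, 42.5 and 36.4 CPM. The highest level with at least 50 UMIs was that of the Ngp only stage with deoxycholic acid and that of the stage with no marker in the media control. From Elane only to Ngp only the fold was 1.58 (1.46 to 1.71) with deoxycholic acid and 1.22 (1.15 to 1.31) in the media control.

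The interferon regulatory factor genes were sparse. Irf8 had 68 UMIs in 48 of 7755 deoxycholic acid cells (0.619%) and 147 UMIs in 97 of 8495 media control cells (1.14%), unthinned. Of the cells with an Irf8 UMI, 79.2% with deoxycholic acid and 73.2% in the media control lay in the stage with no marker. There Irf8 was at 5.31 CPM (4.01 to 6.89) with deoxycholic acid and 6.91 CPM (5.71 to 8.30) in the media control, against 0.293 and 0.465 CPM in the Elane only stage. None was seen in the Ngp and Retnlg stage, where 3 counts would be 2.66 and 1.54 CPM. Basophil or mast-like cells had no Irf8 UMI in 89 deoxycholic acid cells (median 4212 UMIs) and 150 media control cells (median 5778 UMIs), which allows shares of cells with a UMI of up to 3.37% and 2.00%. At these depths a cell with Irf8 at a few CPM would mostly show no UMI, so this limits detection and not the share of cells that express Irf8.

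Irf5, which activates inflammatory cytokine genes in macrophages, had 94 UMIs in 1.13% of deoxycholic acid cells and 173 UMIs in 1.93% of media control cells. It was less confined than Irf8: 33.0% and 29.9% of its cells lay in the stage with no marker. Its level there was 2.94 CPM (2.00 to 4.17) with deoxycholic acid and 3.19 CPM (2.39 to 4.17) in the media control. In the Ngp only stage it was at 0.512 CPM (0.340 to 0.739) and 0.800 CPM (0.601 to 1.04).

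To show the promoters of genes with contrasting stage profiles, the 250 bases before the transcription start are given for Myb, Irf8 and Zeb2, from RefSeq on GRCm38.p6, written 5′ to 3′ on the strand of the gene. RefSeq windows matched 6 of the 8 genes, and each of these 3 lay outside the annotated span of its own gene. Overlap of the windows with other genes was not examined. Capitals mark matches to the motifs searched. The windows are chr10:21160985-21161234 on the minus strand for Myb, chr8:120736108-120736357 on the plus strand for Irf8 and chr2:45117443-45117692 on the minus strand for Zeb2.
Myb: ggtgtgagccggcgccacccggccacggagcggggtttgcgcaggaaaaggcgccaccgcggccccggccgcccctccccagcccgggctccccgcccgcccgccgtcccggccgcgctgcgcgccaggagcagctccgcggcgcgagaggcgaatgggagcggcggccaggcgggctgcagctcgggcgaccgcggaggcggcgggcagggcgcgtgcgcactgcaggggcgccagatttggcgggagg
Irf8: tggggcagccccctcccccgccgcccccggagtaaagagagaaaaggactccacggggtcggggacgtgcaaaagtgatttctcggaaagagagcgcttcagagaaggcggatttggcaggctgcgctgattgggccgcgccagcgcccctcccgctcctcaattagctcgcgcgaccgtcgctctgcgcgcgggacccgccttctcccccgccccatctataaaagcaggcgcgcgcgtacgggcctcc
Zeb2: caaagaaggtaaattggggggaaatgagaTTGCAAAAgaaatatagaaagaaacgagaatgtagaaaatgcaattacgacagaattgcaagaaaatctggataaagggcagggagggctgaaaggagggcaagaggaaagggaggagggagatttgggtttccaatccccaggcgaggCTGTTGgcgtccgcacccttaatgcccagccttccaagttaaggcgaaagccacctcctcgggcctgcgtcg

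The motifs were searched on both strands: CCGGAAG (ETS) was in 7.05% of 27025 windows of this length, GAGGAAGT (PU.1) in 2.44%, CAACNG (MYB) in 29.3%, TGTGGT (RUNX) in 14.2% and TTGCNNAA (C/EBP) in 9.55%, and the longer IRF and GFI1 motifs in 3.04% and 2.41%. Zeb2 held TTGCAAAA from 221 to 214 bases before the start and CTGTTG, the reverse of the MYB motif, from 72 to 67 bases before it; the Myb and Irf8 windows held none of these letters. The GC content was 81.2% for Myb, 67.2% for Irf8 and 49.6% for Zeb2. By GENCODE vM21 on GRCm38, Spi1 lies at chr2:91082390-91115756 on the plus strand and Gfi1 at chr5:107716657-107726036 on the minus strand. Myb lies at chr10:21124935-21160984 on the minus strand and Runx1 at chr16:92601466-92826149 on the minus strand. The sources used here do not name the build used for counting. Gfi1, Irf5, Myb, Runx1, Fli1 and Zeb2 are each overlapped by a gene on the opposite strand, and whether strand was used in counting is not given either.

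Between the libraries, Gfi1 was the only one of the 6 more abundant genes with a log2 ratio past 0.32 in size in all kept cells, the fold used for all calls between the libraries. It was at 23.2 CPM (22.3 to 24.1) with deoxycholic acid and 30.2 CPM (29.3 to 31.0) in the media control, a log2 ratio of -0.38 (-0.45 to -0.31). Of 4670 measured genes, 8.05% were lower by that fold and 7.64% higher, with a median log2 ratio of 0.04 and 95% of genes between -0.55 and 0.44. Gfi1 therefore lay inside the range of ordinary genes. The share of cells with a Gfi1 UMI at 5000 UMIs was 9.34% with deoxycholic acid (8.67 to 10.0) and 11.5% in the media control (10.8 to 12.3), against 24.0% and 33.2% unthinned.

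The other genes differed less. Myb was at 66.4 CPM with deoxycholic acid and 75.7 CPM in the media control (log2 ratio -0.19, -0.23 to -0.15). Runx1 was at 51.9 and 47.0 CPM (0.14, 0.10 to 0.19). Fli1 was at 72.0 and 66.9 CPM (0.11, 0.06 to 0.15) and Zeb2 at 31.1 and 29.4 CPM (0.08, 0.02 to 0.14). Across 4652 genes, not independent of each other, the log2 ratio increased with transcript length (Spearman rho 0.422), and with that trend subtracted Runx1 was at 0.01, Fli1 at 0.05 and Zeb2 at -0.08, while Gfi1 was at -0.41. Spi1 had 30799 UMIs with deoxycholic acid and 43549 in the media control, 262 CPM in each (log2 ratio -0.00027, -0.02 to 0.02), an interval far inside 0.32 as far as counting error goes. Of the sparse genes, Irf8 was at 0.578 and 0.884 CPM (log2 ratio -0.61, -1.05 to -0.19) and Irf5 at 0.799 and 1.04 CPM (-0.38, -0.76 to -0.01). As a mean of the ratios within clusters with at least 10 UMIs in each library, Irf8 was at -0.014 (3 clusters, -0.35 to 0.44). Irf5 was at 0.065 (4 clusters, -0.33 to 0.38). The clusters with most Irf8 differed in share both ways. The Hpgd and Cxcl10 cluster held 2.98% of deoxycholic acid cells and 3.91% of media control cells, and the Ctla2a cluster 1.73% and 2.99%. Monocyte-like cells led by Vcan were 2.26% and 1.82%. The part of these shares in the Irf8 level was not tested.

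**Figure D3:**
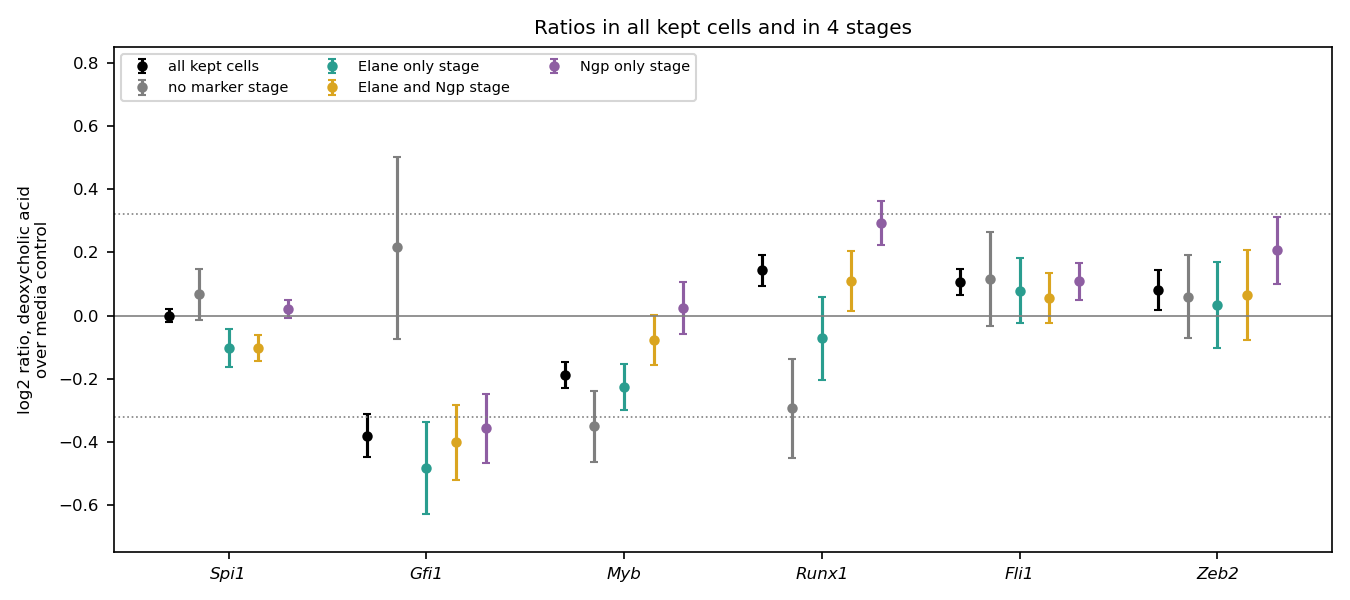
Log2 ratio of deoxycholic acid over media control for the 6 more abundant genes in all kept cells and in 4 stages, with exact 95% intervals; dotted lines mark the fold used for calls, 0.32 in size. Gfi1 lies below the lower line in 3 stages, from -0.48 to -0.36, and Runx1 runs from -0.29 with no marker to 0.29 in the Ngp only stage.

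Within stages, the lower Gfi1 level was found in the 3 stages that hold most of the cells. Of the 6 more abundant genes, Gfi1 was the only 1 past the fold in each of them. Its log2 ratio was -0.48 (-0.63 to -0.34) in the Elane only stage, where 9.75% of genes were lower by the fold and 7.74% higher. It was -0.40 (-0.52 to -0.28) in the Elane and Ngp stage, where 7.52% of genes were lower and 10.0% higher. In the Ngp only stage it was -0.36 (-0.47 to -0.25), where 4.66% of genes were lower and 6.24% higher. In the stage with no marker, 176 UMIs with deoxycholic acid and 239 UMIs in the media control gave 0.22 (-0.07 to 0.50). There the level with deoxycholic acid was the higher of the pair, within counting error. In the Ngp and Retnlg stage 10 and 12 Gfi1 UMIs gave 0.53 (-0.84 to 1.87), and a mean over stages that includes it was -0.10, short of the fold. In that stage 1 member with enough UMIs was past the fold, Fli1 at 0.44 (-0.04 to 0.93) from 66 and 84 UMIs, where 15.9% of genes were higher and 14.5% lower. In the Retnlg only stage Spi1 alone was measured, at 0.10 (-0.29 to 0.48), where 14.7% were higher and 23.7% lower.

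The Myb difference varied between stages. Its log2 ratio was -0.35 (-0.46 to -0.24) with no marker, past the fold like 11.8% of genes (11.0% were higher), and -0.23 (-0.30 to -0.15) in the Elane only stage. In the Ngp only stage, with 2219 and 2690 UMIs, it was 0.02 (-0.06 to 0.11). Runx1 had both signs. It was at -0.29 (-0.45 to -0.14) with no marker, at -0.07 (-0.20 to 0.06) in the Elane only stage, at 0.11 (0.01 to 0.21) in the Elane and Ngp stage, at 0.29 (0.22 to 0.36) in the Ngp only stage and at 0.03 (-0.51 to 0.56) in the Ngp and Retnlg stage. None of these Runx1 values passed the fold. Spi1 ran from -0.10 (-0.16 to -0.04) in the Elane only stage to 0.02 (-0.01 to 0.05) in the Ngp only stage, and Zeb2 was at 0.21 (0.10 to 0.31) in the Ngp only stage.

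The make-up of the stage with no marker also differed between the libraries. Cells of the cluster led by Ctla2a and Ccr2 were 11.7% of it with deoxycholic acid and 18.1% in the media control, and basophil or mast-like cells 10.8% and 14.9%. Other cells took a larger share with deoxycholic acid: monocyte-like cells led by Vcan were 12.8% and 6.29%, and the Fn1 and Lpl cluster 8.01% and 4.04%. The class II markers summed to 55.0 CPM (Siglech at 0) with deoxycholic acid and 26.4 CPM (Siglech at 0) in the media control. The 6 basophil or mast markers, all detected in both, summed to 1052 CPM with deoxycholic acid and 1297 CPM in the media control, and the 4 megakaryocyte markers to 42.4 CPM (Ppbp at 0) and 85.3 CPM. Without basophil or mast-like cells, the log2 ratio of this stage was -0.20 for Runx1, -0.35 for Myb and 0.19 for Gfi1. The part of the other marker lists in these ratios was not tested.

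Joint clustering of both libraries gave 16 clusters with at least 50 cells from each, which show the genes in cells that the stages do not separate. Because all genes formed the clusters, these levels are a description. Over both libraries Spi1 was highest in the cluster led by Retnlg and Mmp9 (398 CPM) and lowest in the cluster led by Cdkn2a and Cald1 (37.1 CPM), whose 5 raised feeder markers included Col1a1. Gfi1 was highest in the cluster led by Fn1 and Lpl (41.3 CPM) and next in that led by Cdc6 (37.6 CPM), while the Mpo-led clusters had 32.5 and 34.2 CPM. Myb was highest in the cluster led by Ctla2a and Ccr2, which also had raised Cd34 and Kit (187 CPM), and then in basophil or mast-like cells (126 CPM) and the Mpo and Ctsg cluster (117 CPM).

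Zeb2 and Runx1 shared their highest of the 16 clusters. In basophil or mast-like cells Zeb2 was at 166 CPM and Runx1 at 132 CPM over both libraries, and the next levels were 102 CPM for Zeb2 in monocyte-like cells, led by Vcan and S100a4, and 65.6 CPM for Runx1 in the same cluster. Irf8 was at 8.51 CPM in the Ctla2a cluster, 5.73 CPM in the cluster led by Hpgd and Cxcl10 and 4.64 CPM in monocyte-like cells, and at or below 0.334 CPM in the other 13 clusters. Irf5 was highest in monocyte-like cells, at 8.17 CPM. There it had 19 UMIs with deoxycholic acid and 18 in the media control. Fli1 spanned 52.5 to 91.6 CPM over 15 clusters and was at 10.3 CPM in the feeder marker cluster.

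**Figure D4:**
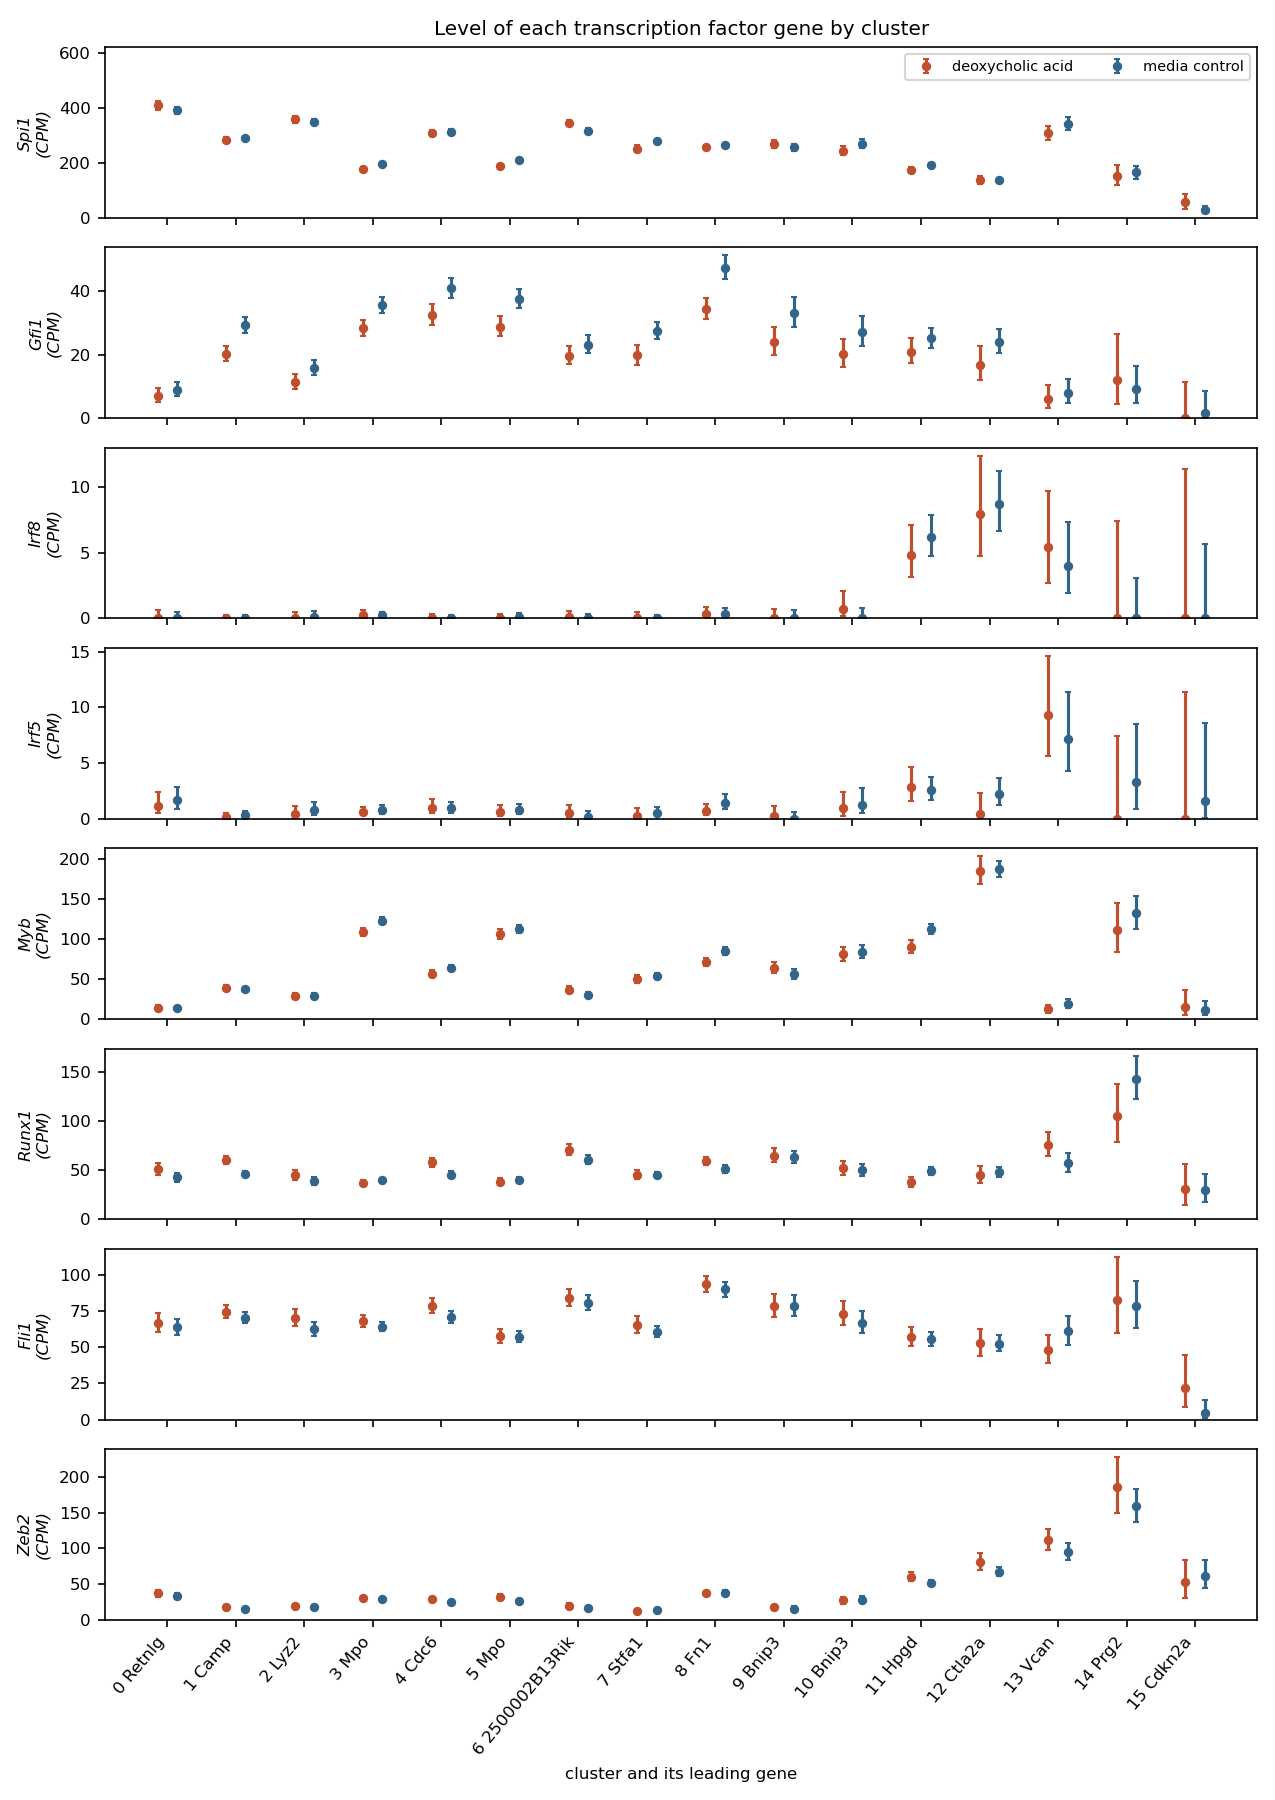
Level (CPM) of the 8 genes in 16 joint clusters, named by number and leading gene, with deoxycholic acid in orange left of media control in blue and exact 95% Poisson intervals. Irf8 is at 4.64 to 8.51 CPM over both libraries in clusters 11, 12 and 13 and at most 0.334 CPM in the other 13, Zeb2 and Runx1 peak in cluster 14, and the orange Gfi1 point lies below the blue one in clusters 0 to 13.

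Inside clusters the Gfi1 difference had 1 direction. Gfi1 was lower with deoxycholic acid in 14 of the 14 clusters with at least 10 UMIs in each library, with log2 ratios from -0.53 to -0.23 and a median of -0.43, and 12 of them were past the fold. Of 7055 genes with as many UMIs in those clusters, 8.16% were lower in every one and 10.2% higher in every one. In the Fn1 and Lpl cluster Gfi1 was at 34.4 CPM with deoxycholic acid and 47.4 CPM in the media control. In basophil or mast-like cells, outside the 14, it was at 12.1 and 9.18 CPM from 6 and 11 UMIs.

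**Figure D5:**
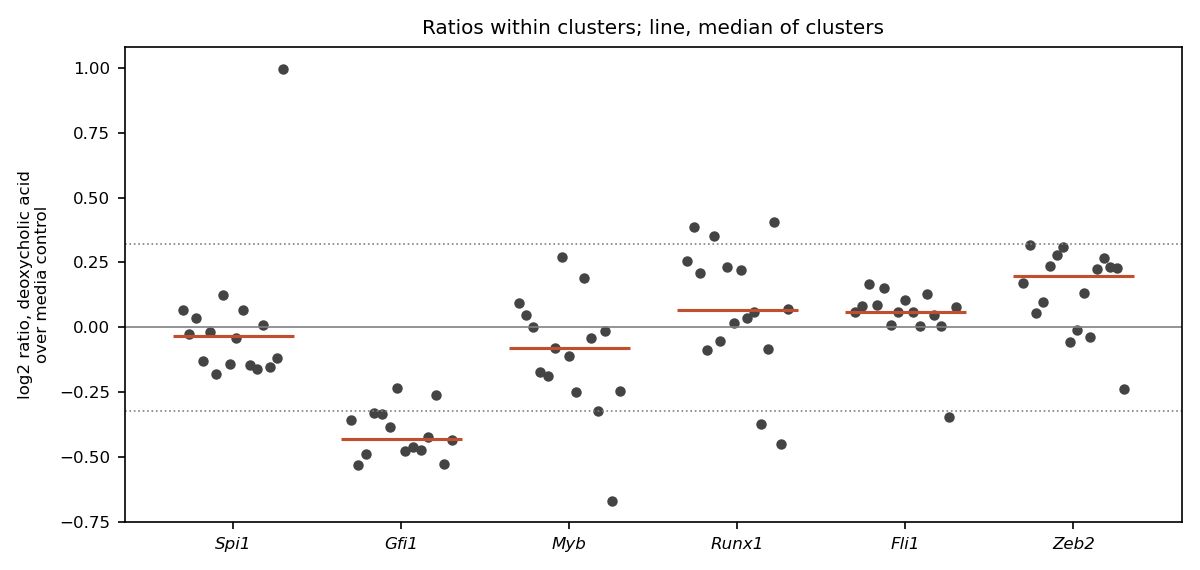
Log2 ratio of deoxycholic acid over media control within each joint cluster (grey points) for the 6 more abundant genes, with the median of clusters as an orange line and dotted lines at the fold used for calls; clusters have at least 50 cells and 10 UMIs of the gene per library. All 14 Gfi1 points lie below 0, from -0.53 to -0.23, while the points of the other genes fall on both sides.

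The other genes had both directions. Zeb2 was higher with deoxycholic acid in 12 of 16 clusters (-0.24 to 0.32, median 0.20) and Fli1 in 14 of 15 (-0.35 to 0.17, median 0.06). Runx1 was higher in 11 of 16 (-0.45 to 0.41); the values below 0 included -0.45 (-0.93 to 0.0045) in basophil or mast-like cells, at 105 CPM with deoxycholic acid and 143 CPM in the media control, and -0.37 (-0.62 to -0.14) in the Hpgd and Cxcl10 cluster. Myb was lower in 10 of 15 (-0.67 to 0.27) and Spi1 in 10 of 16 (-0.18 to 1.00), its highest value resting on 18 and 18 UMIs in the feeder marker cluster. In the Ctla2a cluster, where Myb was highest, it was at 185 CPM with deoxycholic acid and 187 CPM in the media control.

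Pairs of these genes were compared in single cells thinned to 5000 UMIs. Spi1 and Gfi1, whose products are known to oppose each other, were seen together in 6.67% of deoxycholic acid cells and 8.30% of media control cells. The product of the separate shares was 6.73% and 8.37%, so they met about as often as the shares give. Gfi1 and Myb were seen together in 2.94% and 3.92% of cells, above products of 2.06% and 2.76%. Within the Elane only stage that gap was 6.14% against a product of 5.39% with deoxycholic acid and 8.32% against 8.01% in the media control. It was 3.60% against 3.07% and 5.63% against 4.55% in the Elane and Ngp stage, and 1.85% against 1.18% and 2.16% against 1.32% in the Ngp only stage. Gfi1 and Irf8 were seen together in 1 deoxycholic acid cell and in 0 media control cells, where the products give 0.0237% and 0.0368% of cells, too few to compare.

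The genes whose levels were most like those of each member over the 16 clusters were taken by Pearson correlation of log2(CPM + 10) among 7065 genes. The points share their libraries and depth. For Spi1 they were Ptpn6 (0.967), Pstpip1 (0.966) and Sirt7 (0.964). For Gfi1 they were Fam126b (0.969), Tmx4 (0.954) and Trim27 (0.944), and for Myb Asf1a (0.940), Mfsd10 (0.932) and Cdk6 (0.931), the last a kinase of the cell cycle. For Zeb2 they were Trps1 (0.945), Nrip1 (0.930) and Lncpint (0.926). For Runx1 they were Ccdc9 (0.938), Nfkbia (0.910), an inhibitor of NF-kappaB, and Zfp746 (0.907), and for Fli1 Parvg (0.941), Rps6ka1 (0.939) and Ncoa4 (0.938). Irf8 and Irf5 did not reach 20 CPM in any cluster. Among the members, Spi1 and Fli1 had a correlation of 0.825 and Gfi1 and Zeb2 of -0.505.

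The relatives of these factors were read as lists, with members at 5 CPM or more counted. Over 8203 genes the median log2 ratio was 0.05, and 7.9% were higher by the fold and 7.44% lower. With that median above 0, most genes were higher, so a count of higher members alone was not read as a difference. Of the ETS factors, 9 of 10 were measured, 8 were higher and 1 passed the fold (median 0.11): Elf4, an ETS factor of lymphoid and myeloid cells, at 30.7 CPM with deoxycholic acid and 24.4 CPM in the media control (0.33). Spi1, Fli1 and Elf1 (46.3 and 45.9 CPM, 0.01) were the most abundant. All 4 RUNX genes and partner were higher and none passed (median 0.14), with Runx3 at 48.7 and 39.8 CPM (0.29) and Cbfb, which binds the RUNX proteins, at 23.5 and 23.3 CPM (0.02). Of the IRF factors, 4 of 9 were measured, with 3 higher and 1 past the fold (median 0.03). That was Irf9, part of the interferon-activated ISGF3 complex, at 6.69 and 5.21 CPM (0.36), beside Irf2 at 35.2 and 35.4 CPM (-0.01), Irf3 at 12.5 and 12.3 CPM (0.02) and Irf1 at 6.50 and 6.35 CPM (0.03).

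Zinc finger repressors split. Of 7, 4 were measured, 3 higher and 1 lower, with 1 past the fold each way (median 0.20): Gfi1, lower, and Zeb1, the paralog of Zeb2, at 17.1 CPM with deoxycholic acid and 13.7 CPM in the media control (0.33). Ikzf1, which encodes Ikaros, was at 114 and 92.3 CPM (0.31), just short of the fold. Of the 10 monocyte and dendritic cell factors, 4 were measured, with 1 higher and 3 lower (median -0.04): Klf4, a factor of monocytes, was past the fold at 5.41 and 3.47 CPM (0.64), against Id2 at 62.0 and 63.6 CPM (-0.04), Egr1 at 25.7 and 26.5 CPM (-0.04) and Tcf4 at 13.1 and 13.8 CPM (-0.07). Of the 10 stem and progenitor factors, 8 were measured, 3 higher and 5 lower, none past the fold (median -0.10). Besides Myb the most abundant were Hoxa9 at 44.6 and 43.7 CPM (0.03) and Lyl1 at 45.6 and 42.6 CPM (0.10), and Myc was at 16.0 and 19.9 CPM (-0.31).

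Corepressors and coactivators, through which these factors act on chromatin, had 10 of 10 measured, 7 higher and 3 lower, with 2 past the fold upward (median 0.03). These were Irf2bp2, at 77.2 CPM with deoxycholic acid and 57.3 CPM in the media control (0.43), and the acetyltransferase gene Crebbp, at 49.0 and 38.9 CPM (0.33). Both were higher with deoxycholic acid in each stage, and the share of all genes higher in each stage was not counted. The deacetylase gene Hdac1 was at 88.1 and 87.7 CPM (0.01) and Rcor1, which encodes a partner of the demethylase that Gfi1 recruits, at 60.0 and 54.5 CPM (0.14).

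Genes known as targets of the factors were compared as well. Of 8 PU.1-bound genes, 7 were measured and 7 were higher, none past the fold (median 0.18). The median over all genes was 0.05, so most genes were higher as well. Cybb, a subunit of the phagocyte oxidase, was at 711 CPM with deoxycholic acid and 601 CPM in the media control (0.24), Itgam at 133 and 129 CPM (0.04) and Csf2ra, a GM-CSF receptor chain, at 91.9 and 81.2 CPM (0.18). Of 8 Gfi1-repressed genes, 5 were measured, 3 higher and 2 lower, none past the fold (median 0.03), with Id2 and Hoxa9 as above. The list thus had no common direction.

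Of 6 Myb targets, 4 were measured, 3 higher and 1 lower (median 0.12). Kit, the stem cell factor receptor gene, was past the fold in the direction opposite to Myb, at 22.6 CPM with deoxycholic acid and 16.7 CPM in the media control (0.44). Mpo, the myeloperoxidase gene, was at 689 and 607 CPM (0.18), Ccnb1 at 72.1 and 69.6 CPM (0.05) and Myc, lower like Myb, is given above. In the Elane only stage, where Myb was highest, Kit was at 57.6 and 38.9 CPM. Of 6 Irf8 targets only Klf4, above, and Cst3, at 393 and 455 CPM (-0.21), were measured (median 0.21), and none of the 4 Irf5 targets was, Tnf being at 4.55 and 4.74 CPM. Of the 8 factors themselves, 6 were measured, 3 higher and 3 lower (median 0.04).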

How the data were processed

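The deposited table holds UMI counts per gene and cell, which the authors made with Cell Ranger 6.0 per the submitters' processing notes, from a 10x 3′ assay. Cells with at least 300 genes and at most 10% mitochondrial UMIs were kept. Doublets were treated by removing cells at or above the 6% point of the highest Scrublet scores, which with tied scores took 6.80% of deoxycholic acid and 6.27% of media control cells, since the automatic threshold marked 0.048% and 0.044% of cells. Counts were summed per library and stage and divided by all UMIs. With 1 library per group, no test was made: intervals are exact Poisson or binomial, and genes count as different past a log2 ratio of 0.32 in size at 20 CPM or more (5 CPM in lists) with 50 UMIs in the higher library. Cells were clustered with scanpy 1.11.5 (2000 variable genes, 30 components, 15 neighbours, Leiden resolution 1); edgeR 4.0.16 gave TMM factors only. Summing and ratios were tested on simulated data. The members and lists were chosen with earlier results of these data known. Named genes are the members, the 3 most abundant of each list, those past the fold, and the 3 most alike in each cluster profile; Myc and Tnf were named after their values were seen, and 1 gene that the rule names is not reported here. Alternatives were other scalings, cuts, filters and weightings.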

Additional observations from a re-analysis of the deposited data

Results flagged for a closer look

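Runx1 had log2 ratios of deoxycholic acid over media control with opposite signs between stages: -0.29 in the stage with no marker, 0.11 in the Elane and Ngp stage and 0.29 in the Ngp only stage. It is listed because intervals for counting error lay on opposite sides of 0, and with 1 library per group the difference between stages was not tested. At marker cuts of 5 and 50 the ratio was -0.38 and -0.16 with no marker and 0.32 and 0.28 in the Ngp only stage. Without basophil or mast-like cells it was -0.20 with no marker. Within joint clusters it was -0.37 in the Hpgd and Cxcl10 cluster and 0.39 in the cluster led by Camp. The make-up of the stage with no marker also differed between the libraries, and its part in this result was not tested.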

How the results depend on the processing

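No paired analysis was possible because the cell names carry only the group and no sample letter, and no test was made. Of the all-cell log2 ratios under alternatives, 75 stayed within their interval, 20 moved and 1 reversed. Ratios within stages stayed in 63 cases and moved in 9. Folds of the Ngp and Retnlg over the Elane only stage were less stable, with 17 within their interval, 29 moved and 2 reversed. Shares of cells with a UMI, taken unthinned or thinned to 2500 UMIs, stayed in 35 cases and moved in 109. With TMM scaling and with median-of-ratios scaling, which shift the median of all genes to -0.01 in both, Spi1 was at -0.056 and -0.053, Myb at -0.25 and -0.24, Runx1 at 0.088 and 0.090, and Fli1 at 0.050 and 0.052. With the transcript length trend subtracted, Myb was at -0.28, Runx1 at 0.013, Fli1 at 0.048 and Zeb2 at -0.078. As a mean within clusters, Irf8 was at -0.014 (3 clusters), Irf5 reversed to 0.065 (4 clusters), Myb was at -0.10, Runx1 at 0.075 and Fli1 at 0.046. As a mean within stages, Gfi1 was at -0.10, which includes 0.53 from 10 and 12 UMIs in the Ngp and Retnlg stage, Fli1 was at -0.00018, and the count of members past the fold downward was 0. Myb was at -0.12 as a mean over cells and at -0.094 with thinned cells. The share of genes past the fold upward was 4.33% with TMM, 4.41% with median-of-ratios, 5.03% with the length trend subtracted and 25.3% with no minimum level, and downward 18.9% with no minimum. Per cell instead of as CPM, Spi1 in the Ngp and Retnlg over the Elane only stage reversed to a log2 fold of -0.73 with deoxycholic acid and -0.91 in the media control. On that scale 0 members were at least 2-fold higher and 5 at least 2-fold lower in each library. At a cut of 50, 1 member was at least 2-fold lower with deoxycholic acid and 0 at least 2-fold higher in the media control. The shares of all genes under these alternatives were not counted, so the counts are not read as a result about the members. A UMI count per cell is not divided by depth, and depth differs between these stages. At the main cut, the median went from 18230 to 5351 UMIs with deoxycholic acid and from 25274 to 6044 UMIs in the media control. The cause of the other moves was not tested. Levels of a few UMIs, such as those of Irf8, Irf5 and all genes in the Retnlg only stage, are limited by depth.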

Other observations

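Further monocyte and progenitor factors were read in the stage with no marker, named after their values were seen. In this stage 11.0% of measured genes were higher by the fold and 11.8% lower. Maf, Nr4a1 and Cd34, all below the 20 CPM minimum, are given without intervals, and no difference is called from them. Maf, a macrophage factor, was at 8.82 CPM with deoxycholic acid and 2.71 CPM in the media control. Klf4 was at 23.1 and 15.7 CPM. Monocyte-like cells led by Vcan were 12.8% of this stage with deoxycholic acid and 6.29% in the media control. Class II markers summed to 55.0 and 26.4 CPM. Monocyte markers summed to 1163 and 980 CPM here, but to 1288 and 1183 CPM in the Elane only stage. Their sum thus did not set the stage with no marker apart. The part of the Vcan-led cells in these levels was not tested. In the other direction Nr4a1, needed for patrolling monocytes in mice, was at 2.28 and 5.77 CPM. Gata2, a factor of stem cells, basophils and mast cells, was at 25.5 and 40.1 CPM, beside summed basophil or mast markers of 1052 and 1297 CPM; the part of those cells in it was not tested. Over all kept cells Cd34, a progenitor surface gene, was at 1.53 and 2.71 CPM, while Kit was at 22.6 and 16.7 CPM.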
